A study of Mus musculus with 6 samples.

Results

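A group of 9 genes of MHC class II presentation was examined in bone marrow-derived macrophages, out of 21959 genes in the deposited expression table. The members were taken by gene name: the chain genes H2-Aa, H2-Ab1 and H2-Eb1, the invariant chain gene Cd74, the peptide exchange genes H2-DMa, H2-DMb1 and H2-DMb2, the reductase gene Ifi30 and the transactivator gene Ciita. All 9 names were found once each. MHC class II molecules are heterodimers of an alpha and a beta chain that hold peptides from the endosomal pathway at the cell surface for CD4+ T cells to read. In antigen-presenting cells the invariant chain fills the peptide groove of new class II dimers and steers them to endosomes, where proteases trim it to a short fragment that the DM dimer then exchanges for antigen peptide. Ifi30 encodes GILT, which opens disulphide bonds of endocytosed proteins. Ciita encodes the coactivator CIITA, which does not bind DNA itself, is induced by interferon gamma in macrophages and acts at class II promoters through the factors bound to their S, X and Y boxes.

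The cells were primary wild-type mouse macrophages grown from bone marrow. They were kept for 24 h in fresh complete medium mixed in equal parts with medium from alveolar macrophages, the resident phagocytes of the air spaces, of mice aged 8 to 12 weeks. In the first group the donor alveolar macrophages were positive for HTR2C, a serotonin receptor, and had conditioned the medium for 48 h (HTR2C+ medium, libraries P051, P052 and P053). In the other group the donor cells were HTR2C-negative and the medium was otherwise made the same way (HTR2C- medium, libraries N051, N052 and N053). The strain of the mice is not given in the sources used here, no untreated macrophages were analysed here, and nothing says whether the 3 libraries of a group came from separate cultures or donors. The p-values therefore cover only the spread among these libraries, which may be technical. Total counts were 15545190 to 15728400 per library with HTR2C+ medium and 12843971 to 16031723 with HTR2C- medium, and Htr2c had 0 counts in all 6 libraries of the receiving cells. N052 and P051 were more alike (Pearson r of log2 CPM, the count scaled to library size, of 0.980 across genes) than any pair of libraries from one group. Results that turn on them are also given without them. This pair was picked for its likeness across the groups, so leaving it out favours a difference. The p-values of that fit, and of the fits without N052 or P051 alone, are therefore no support for a difference. Log2 deviations from the mean of the 6 libraries followed GC content in opposite directions in the groups: the slope per 10 percentage points of GC was 0.16 to 0.26 with HTR2C+ medium and -0.34 to -0.04 with HTR2C- medium.

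Of 8 macrophage markers, all 8 were expressed in both groups, with a summed level of 22920 to 25724 CPM with HTR2C+ medium and 24263 to 26208 CPM with HTR2C- medium. CPM values here are scaled with TMM factors, edgeR's correction for library composition. Of the macrophage markers, Csf1r, the receptor for macrophage colony-stimulating factor, had 171, 129.9 and 191 CPM in P051, P052 and P053, against 83.8, 127 and 106 CPM in N051, N052 and N053. Its groups were separate (log2 fold change 0.63, SE 0.19, edgeR adjusted p = 0.141), as were those of Fcgr1 and of 22.3% of all genes. Csf1r was the 1 macrophage marker with an unadjusted p under 0.05, against 16.6% of all genes. With trends on GC content and gene length removed, its log2 fold change was 0.32. Adgre1, Cd68, Lyz2 and Cd14 had negative fold changes, and Itgam, Fcgr1 and Mertk positive ones. Of 10 dendritic cell markers, 4 were tested and 1, the actin-bundling gene Fscn1, had an unadjusted p under 0.05, against 16.6% of all genes. Its log2 fold change was 1.27 (SE 0.34, edgeR adjusted p = 0.113), and 0.80 with the GC and length trends removed. Zbtb46, Itgax and Ccr7, the other tested markers, had overlapping groups and log2 fold changes of 0.04, 0.29 and 0.31. The summed dendritic cell level was 18.5 to 25.6 CPM with HTR2C+ medium and 13.0 to 19.9 CPM with HTR2C- medium. Most of this sum came from Itgax, Ccr7 and Fscn1. They averaged 9.25, 6.48 and 5.37 CPM with HTR2C+ medium and 7.53, 5.18 and 2.22 CPM with HTR2C- medium. The defining receptor gene Flt3 had 8, 2 and 1 counts in P051, P052 and P053 and 0 counts in each library with HTR2C- medium. The other untested dendritic cell markers went both ways. Summed counts with HTR2C+ against HTR2C- medium were 3 against 14 for Clec9a and 7 against 15 for Dpp4. They were 4 against 1 for Xcr1, 7 against 0 for Cd209a and 15 against 14 for Batf3. Of 8 B cell markers 7 were in the table, summed to 2.05 to 2.74 CPM with HTR2C+ medium and 1.07 to 2.03 CPM with HTR2C- medium, with Blk at 0 throughout. The part of these cells, and of the Csf1r difference, in the class II values was not tested. Of 8 T and NK cell markers, 7 were in the table and summed to 0.725 to 2.05 CPM with HTR2C+ medium and 0.537 to 1.17 CPM with HTR2C- medium, with Klrb1c at 0. Of 8 alveolar macrophage markers, whose cells were the source of the medium, Fabp1 was at 0 and the sum was 120.2 to 140.0 CPM with HTR2C+ medium and 126 to 131 CPM with HTR2C- medium. Most of this sum was Marco and Chil3, which averaged 61.1 and 64.1 CPM with HTR2C+ medium and 61.3 and 60.9 CPM with HTR2C- medium. Siglecf, Car4, Ear1 and Ear2 were below the count filter, at 0 to 27 counts per library.

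Promoter sequences were found in RefSeq's table (GRCm38.p6) for 6 of the 9 members, in 7 windows. The 200 bases before the annotated start are shown for the 4 members whose windows held a Y box, so that the X and Y boxes can be compared between them. Letters in capitals are matches to 4 motifs that were spelled out with these sequences in view: GGACCT (S box), CNGATGATG (X box core), TGACGTCA (the cyclic AMP response element that can take the X2 place) and TGATTGG (Y box), each searched on both strands, with no overlap between matches.
H2-Aa: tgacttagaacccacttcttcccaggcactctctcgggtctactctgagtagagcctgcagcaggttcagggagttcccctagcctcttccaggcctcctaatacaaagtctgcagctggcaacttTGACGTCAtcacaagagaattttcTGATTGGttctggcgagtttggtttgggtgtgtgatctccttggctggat
H2-Eb1: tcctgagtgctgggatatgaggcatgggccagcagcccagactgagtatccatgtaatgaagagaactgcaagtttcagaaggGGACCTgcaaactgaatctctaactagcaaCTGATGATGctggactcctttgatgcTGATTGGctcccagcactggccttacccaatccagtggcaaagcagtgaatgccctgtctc
H2-DMb1: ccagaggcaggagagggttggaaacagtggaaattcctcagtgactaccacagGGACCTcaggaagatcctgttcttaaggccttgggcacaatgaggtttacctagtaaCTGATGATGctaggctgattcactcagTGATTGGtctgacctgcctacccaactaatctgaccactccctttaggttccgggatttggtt
H2-DMb2: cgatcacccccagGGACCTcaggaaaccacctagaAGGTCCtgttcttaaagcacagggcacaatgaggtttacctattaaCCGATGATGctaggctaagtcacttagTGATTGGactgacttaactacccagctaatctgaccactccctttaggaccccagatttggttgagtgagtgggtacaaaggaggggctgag

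These windows lie at chr17:34287824-34288023 on the minus strand (H2-Aa), and on the plus strand at chr17:34305667-34305866 (H2-Eb1), chr17:34152991-34153190 (H2-DMb1) and chr17:34145049-34145248 (H2-DMb2), all in GRCm38.p6, and are written 5′ to 3′ on the strand of the gene. The X box core stood 26 bases before the Y box in H2-Eb1 and 27 bases before it in both H2-DMb1 and H2-DMb2, counted between first letters. H2-Aa had no match to the X box core as spelled here, and looser spellings were not searched. Its cyclic AMP response element stood 24 bases before the Y box. The S box letters were not at 1 set distance from the X box core. In H2-Eb1 they stood 117 bases before the start, with the core at 87. In H2-DMb1 they stood at 147, with the core at 90. In H2-DMb2 they stood at 187 and, on the other strand, at 165, with the core at 119. Whether any of these letters act as an S box was not tested. Over all 32851 promoter windows of the table, cut to the 250 bases before the start, the X box core was in 0.791%, the response element in 1.55%, the Y box in 7.23% and the S box in 12.4%. X box core and Y box together were in 0.0578%. The windows of H2-DMa and Ifi30 held none of these letters, which says nothing about the factors themselves.

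By deposited FPKM, the count per gene length and library total, H2-Ab1 and Cd74 were the most abundant members. H2-Ab1 averaged 674 ± 119 FPKM with HTR2C+ medium and 550.2 ± 88.3 FPKM with HTR2C- medium, and Cd74 averaged 604 ± 69.5 FPKM with HTR2C+ medium and 581 ± 38.1 FPKM with HTR2C- medium (SD, n = 3 each). The ranges of these 2 genes overlapped in both groups. H2-Eb1 came next, at 103 ± 12.8 FPKM with HTR2C+ medium and 72.7 ± 12.7 FPKM with HTR2C- medium. H2-Aa, at 81.9 ± 14.6 FPKM with HTR2C+ medium and 65.2 ± 8.13 FPKM with HTR2C- medium, overlapped it in both groups. H2-DMb1 followed with 51.7 ± 22.1 FPKM in HTR2C+ medium and 38.7 ± 6.91 FPKM in HTR2C- medium, and its P051 value lay within the HTR2C+ range of H2-Aa. Ifi30 averaged 9.73 ± 1.74 FPKM with HTR2C+ medium and 7.78 ± 1.13 FPKM with HTR2C- medium. H2-DMa, at 6.21 ± 1.53 FPKM with HTR2C+ medium and 4.26 ± 0.864 FPKM with HTR2C- medium, overlapped Ifi30 with HTR2C+ medium and not with HTR2C- medium. At the foot, H2-DMb2 at 0.442 ± 0.384 FPKM with HTR2C+ medium and 0.198 ± 0.141 FPKM with HTR2C- medium overlapped Ciita, at 0.211 ± 0.0284 FPKM with HTR2C+ medium and 0.0835 ± 0.0620 FPKM with HTR2C- medium.

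The order among the chains depends on the length used. The table's length is 3798 bases for H2-Aa, where the longest coding transcript in GENCODE M21 has 1128, and 2568 against 1212 bases for H2-Ab1. With the transcript lengths H2-Aa stood at 276 ± 49.3 FPKM with HTR2C+ medium and 219 ± 27.4 FPKM with HTR2C- medium, above H2-Eb1 at 119.7 ± 14.9 FPKM with HTR2C+ medium and 84.7 ± 14.7 FPKM with HTR2C- medium. H2-Ab1 then stood at 1428 ± 253 FPKM with HTR2C+ medium and 1166 ± 187 FPKM with HTR2C- medium. Within a library this was 4.94 to 5.45 times H2-Aa with HTR2C+ medium and 5.10 to 5.51 times with HTR2C- medium. The H2-Ab1 level was also above that of Cd74 in every library with these lengths, where Cd74 was at 719 ± 82.7 FPKM with HTR2C+ medium and 692 ± 45.3 FPKM with HTR2C- medium.

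Set against HTR2C- medium, 7 of the 8 tested members had a positive fold change with HTR2C+ medium and Cd74 a negative one, and all but Ciita differed by at most 1.32-fold. In edgeR's quasi-likelihood test 0 of 8 members had an adjusted p under 0.05, against 0 of 10177 genes (0%). At an unadjusted p under 0.05 there was 1 member, H2-Eb1, against 16.6% of all genes. DESeq2 called 0 of the 7 members it gave an adjusted p (5.77% of genes, 394 in all), and limma-voom called 0 of 8 (0%), each with 2 members at an unadjusted p under 0.05, against 16.5% of all genes in either tool. The median log2 fold change of the 8 was 0.23, beside 0.02 over all tested genes, of which 52.1% were positive. In bulk RNA a change in the share of expressing cells and a change in RNA per cell cannot be told apart.

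**Figure D1:**
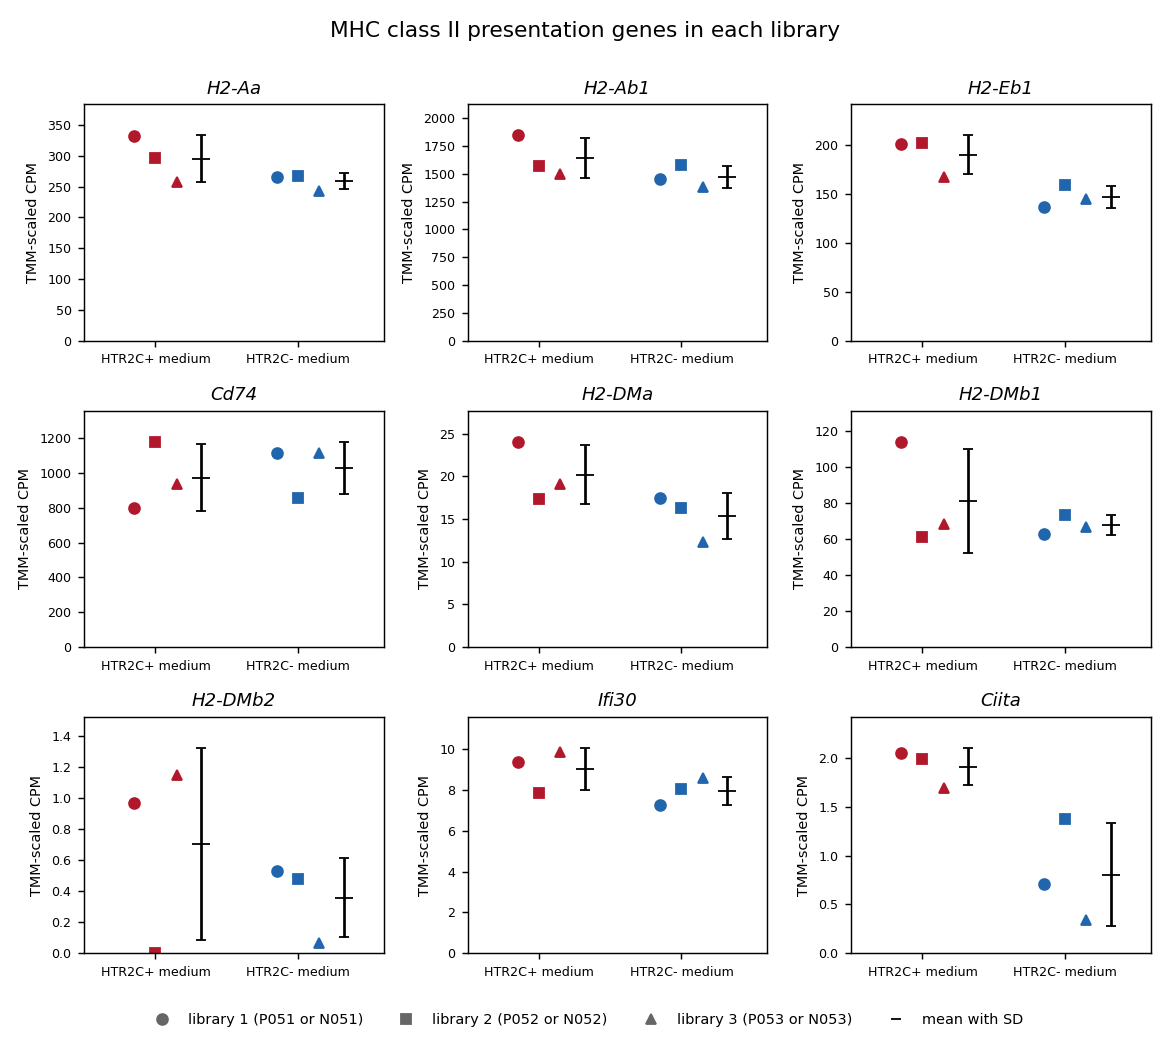
TMM-scaled CPM (vertical axes, from 0) of the 9 genes in each library, with HTR2C+ medium left in red and HTR2C- medium right in blue; bars are the mean and SD of 3 libraries. The groups are separate for H2-Eb1 and Ciita, P051 stands highest for 5 of the 8 tested genes, and Cd74 is lowest in P051.

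H2-Eb1 (ENSMUSG00000060586, chromosome 17, 34524841 to 34535648, GRCm39, plus strand), the beta chain of the I-E molecule, had 201, 202 and 167 CPM in P051, P052 and P053, against 137, 159 and 145 CPM in N051, N052 and N053. All 3 libraries with HTR2C+ medium lay above all 3 with HTR2C- medium. The log2 fold change was 0.37 (SE 0.15, unadjusted p = 0.0262, edgeR adjusted p = 0.237). It stayed at 0.32 to 0.46 when any single library was left out. After correction for the library-specific trend of counts on GC content and the table's gene length it was 0.33 (edgeR adjusted p = 0.470). Without N052 and P051 it was 0.40 and its adjusted p 0.0497, in a fit that called 10.9% of all genes.

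H2-Aa (ENSMUSG00000036594, chromosome 17, 34501718 to 34506797, minus strand) encodes the alpha chain of the I-A molecule. It had 333, 296 and 257 CPM in P051, P052 and P053 and 265, 267 and 243 CPM in N051, N052 and N053. P053 lay within the range of the HTR2C- libraries, so the groups overlapped. The log2 fold change was 0.19 (SE 0.15, edgeR adjusted p = 0.553), 0.12 without P051 and 0.28 after GC and length correction. H2-Ab1 (ENSMUSG00000073421, chromosome 17, 34476663 to 34488393, plus strand), the partner beta chain, had 1847, 1574 and 1501 CPM in P051, P052 and P053, against 1453, 1582 and 1382 CPM in N051, N052 and N053. N052 exceeded P052 and P053, and the log2 fold change of 0.16 (SE 0.15, edgeR adjusted p = 0.643) was 0.08 without P051. After GC and length correction H2-Ab1 had a log2 fold change of -0.20. Its GC content was 57.3%, that of H2-Aa 46.5%.

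Cd74 (ENSMUSG00000024610, chromosome 18, 60936920 to 60945724, plus strand) had a fold change opposite in sign to those of the chains, a difference that was not tested. It had 802, 1182 and 940 CPM in P051, P052 and P053 and 1115, 858 and 1115 CPM in N051, N052 and N053. The lowest values were in P051 and N052, the libraries with the highest H2-Ab1 of their groups. The log2 fold change was -0.08 (SE 0.18, edgeR adjusted p = 0.860), and it was 0.061 without P051, 0.055 with libraries scaled to total counts alone and -0.38 after GC and length correction.

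Within a library the level of Cd74 per length, divided by the summed level of the 3 chains, does not depend on how libraries are scaled. With the table's lengths this ratio was 0.525, 0.885 and 0.759 in P051, P052 and P053, against 0.941, 0.665 and 0.981 in N051, N052 and N053. The groups overlapped, with the lowest value of each in P051 and N052. With the GENCODE M21 transcript lengths the ratio was 0.293, 0.498 and 0.426 in P051, P052 and P053, against 0.522, 0.372 and 0.548 in N051, N052 and N053, with the same overlap. Also by table length, H2-Eb1 per H2-Ab1 was 0.144, 0.170 and 0.147 in P051, P052 and P053 and 0.124, 0.133 and 0.139 in N051, N052 and N053, without overlap. By the same lengths H2-Aa per H2-Ab1 ran from 0.116 to 0.127 with HTR2C+ medium and from 0.114 to 0.123 with HTR2C- medium, and the groups overlapped. The 9 members together took 0.316% to 0.376% of all counts with HTR2C+ medium and 0.270% to 0.314% with HTR2C- medium. Unlike the ratios, this share depends on scaling: with libraries scaled to total counts, the median log2 fold change of all tested genes was 0.16.

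**Figure D2:**
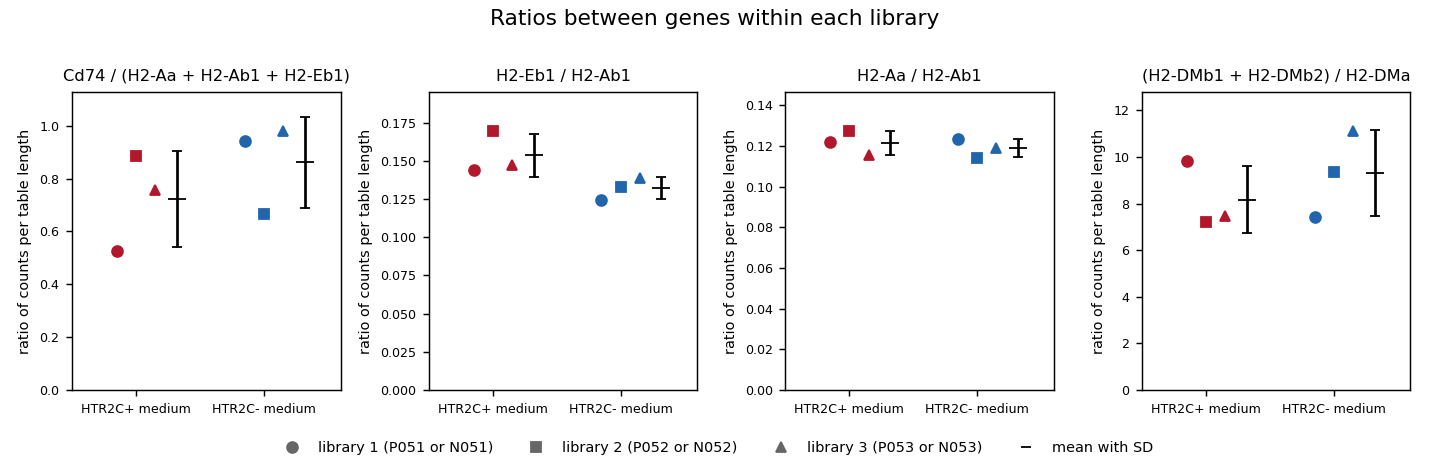
Ratios of counts per table length between genes of the same library (vertical axes, from 0), HTR2C+ medium left in red, HTR2C- medium right in blue; bars are the mean and SD of 3 libraries. The ratio of Cd74 to the chains is lowest in P051 and N052 (0.525 and 0.665), and H2-Eb1 per H2-Ab1 is the ratio whose groups are separate.

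The 2 tested DM genes, whose products exchange the invariant chain fragment for peptide, had positive fold changes that missed the threshold. H2-DMb1 (ENSMUSG00000079547, chromosome 17, 34372046 to 34379204, plus strand) had 114, 61.0 and 68.7 CPM in P051, P052 and P053 and 62.9, 73.6 and 66.6 CPM in N051, N052 and N053. P051 alone stood above the rest. The log2 fold change of H2-DMb1 was 0.26 (SE 0.21, edgeR adjusted p = 0.561) and turned to -0.044 without P051. H2-DMa (ENSMUSG00000037649, chromosome 17, 34338515 to 34358075, plus strand) had 24.1, 17.4 and 19.1 CPM in P051, P052 and P053, against 17.5, 16.3 and 12.3 CPM in N051, N052 and N053. N051 just exceeded P052, and the log2 fold change was 0.40 (SE 0.21, edgeR adjusted p = 0.355), 0.27 without P051 and 0.08 after GC and length correction. The table's span of H2-DMa overlaps Brd2 on the other strand, which had 3298, 2189 and 3304 counts in P051, P052 and P053 and 1376, 2924 and 1974 counts in N051, N052 and N053. Whether counting used strand is not given in the sources used here, so reads of the 2 genes cannot be told apart where they overlap.

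H2-DMb2 (ENSMUSG00000037548, chromosome 17, 34362281 to 34370529, plus strand), the second DM beta gene, was almost silent and was the 1 member below the count filter. It had 17, 0 and 19 counts in P051, P052 and P053 and 6, 7 and 1 counts in N051, N052 and N053, at most 1.64% of the counts of both DM beta genes. The 0 in P052 allows up to 0.198 CPM. Of the 50-base stretches of the longest H2-DMb1 coding transcript, 27.2% also occur in a transcript of H2-DMb2, so the split of reads between the genes is uncertain. With the counts of both genes summed, the log2 fold change was 0.27. H2-DMb1 and H2-DMb2, with an X box core and Y box at the same spacing in the sequences above, averaged 51.7 and 0.442 FPKM with HTR2C+ medium and 38.7 and 0.198 FPKM with HTR2C- medium. DM beta per DM alpha, by level per table length, was 7.19 to 9.82 with HTR2C+ medium and 7.44 to 11.1 with HTR2C- medium. The table's length is 3448 bases for H2-DMa, against 2005 for the longest GENCODE M21 coding transcript, and 1681 against 1404 bases for H2-DMb1. With the transcript lengths this ratio is lower in every library.

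Ifi30 (ENSMUSG00000031838, chromosome 8, 71215419 to 71219307, minus strand) had 9.35, 7.87 and 9.85 CPM in P051, P052 and P053, against 7.24, 8.04 and 8.60 CPM in N051, N052 and N053. P052 lay inside the HTR2C- range. The log2 fold change was 0.18 (SE 0.23, edgeR adjusted p = 0.733), and -0.00095 after GC and length correction.

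Ciita (ENSMUSG00000022504, chromosome 16, 10297923 to 10346282, plus strand) had the largest fold change of the tested members on the fewest reads. It had 36, 30 and 28 counts in P051, P052 and P053 and 8, 20 and 5 counts in N051, N052 and N053, or 2.05, 1.98 and 1.69 CPM against 0.707, 1.37 and 0.336 CPM. The groups were separate, as they were for 2 of the 8 tested members, with higher values in HTR2C+ medium in 10.9% of all genes. The log2 fold change was 1.23 (SE 0.58, unadjusted p = 0.0530, edgeR adjusted p = 0.309), or 2.35-fold. It was 0.87 without N053, 1.89 without N052 and 0.92 after GC and length correction. Ciita passed the filter of 10 counts at the median depth in 3 libraries through P051, P052, P053 and N052. Its span overlaps Dexi on the other strand, with 10, 10 and 14 counts in P051, P052 and P053 and 9, 1 and 1 counts in N051, N052 and N053, and reads of the 2 genes cannot be told apart where they overlap. Ciita has several promoters used in different cells, and a count per gene does not separate them.

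**Figure D3:**
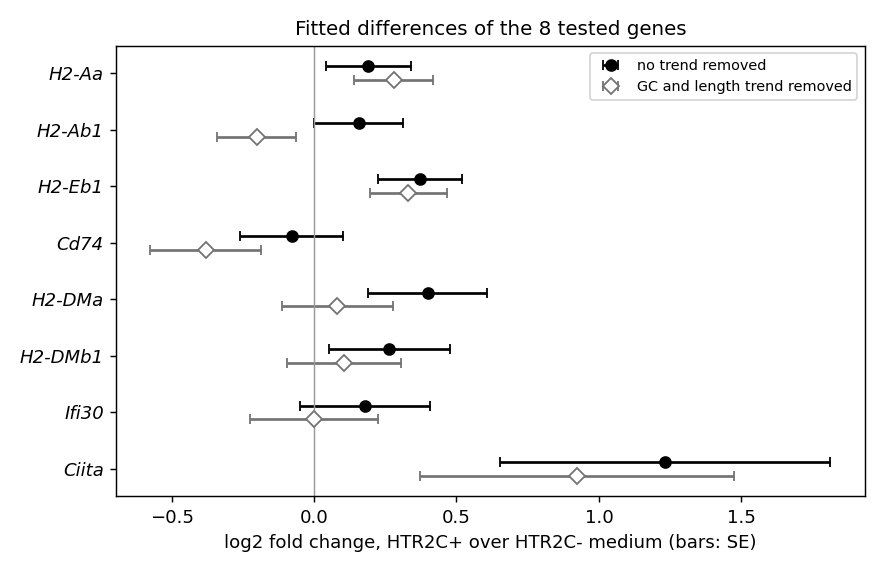
Log2 fold change of HTR2C+ over HTR2C- medium (horizontal axis) with its SE for the 8 tested genes, without correction (filled circles) and corrected for GC content and length (open diamonds). Without correction 7 of 8 are positive; after correction 5 of 8 are, with H2-Ab1 at -0.20 and Cd74 at -0.38.

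After correction for GC and length the median of the 8 members was 0.09 beside 0.01 over all genes, of which 51.4% were positive. H2-Eb1 alone had an unadjusted p under 0.05 in that fit, as had 9.84% of all genes. P051 was the highest library for 5 of 8 tested members and for 22% of all tested genes. Leaving it out turned the signs of H2-DMb1 and Cd74 and brought H2-Aa and H2-Ab1 to 0.12 and 0.08. With N052 left out as well, the log2 fold changes of the chains were 0.14 for H2-Aa, 0.13 for H2-Ab1 and 0.40 for H2-Eb1. In the same fit Cd74 stood at -0.06, H2-DMa at 0.32, H2-DMb1 at 0.016, Ifi30 at 0.17 and Ciita at 1.84 (SE 0.88, edgeR adjusted p = 0.182).

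**Figure D4:**
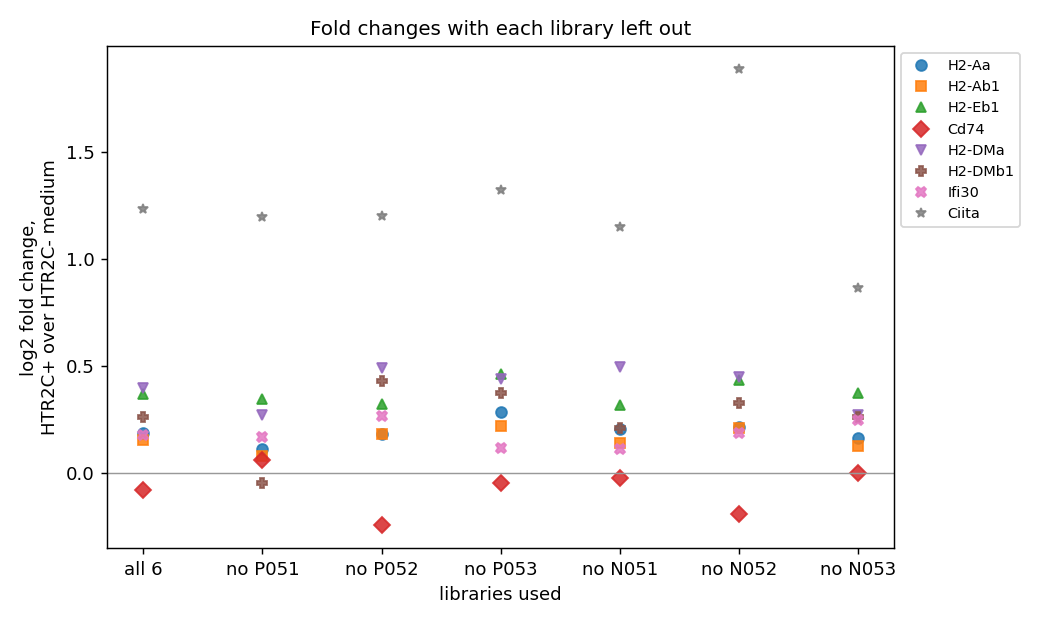
Log2 fold change of HTR2C+ over HTR2C- medium (vertical axis) of the 8 tested genes with all 6 libraries and with each library left out in turn. H2-Eb1 stays between 0.32 and 0.46, Ciita runs from 0.87 to 1.89, and H2-DMb1 is at -0.044 without P051.

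Among other class II genes, H2-Ea, which encodes the alpha chain that pairs with H2-Eb1, and H2-Eb2 had 0 counts in all 6 libraries, which allows up to 0.171 to 0.198 CPM with HTR2C+ medium and 0.202 to 0.265 CPM with HTR2C- medium. H2-Ea is a null gene in mice of the b haplotype. H2-Oa and H2-Ob encode DO, an inhibitor of DM best known in B cells. H2-Ob, the 1 tested of these 4 genes, had 0.456, 0.794 and 0.846 CPM in P051, P052 and P053, against 1.24, 1.10 and 1.21 CPM in N051, N052 and N053. Its groups were separate, on 8 to 18 counts per library, with a log2 fold change of -0.75 (SE 0.60, edgeR adjusted p = 0.555).

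Of 7 genes for factors bound at the S, X and Y boxes, 6 were tested. With an unadjusted p below 0.05, 0 were higher and 1 was lower, against 7.9% and 8.71% of all genes, and their median log2 fold change was -0.06 (0.063 with libraries scaled to total counts). That gene was Nfyb, a subunit of the Y box factor NF-Y, with 30.5, 32.4 and 30.5 CPM in P051, P052 and P053 and 62.2, 40.7 and 50.5 CPM in N051, N052 and N053. The groups were separate and the log2 fold change was -0.72 (SE 0.18, edgeR adjusted p = 0.0942), -0.49 after GC and length correction. DESeq2 gave Nfyb an adjusted p of 0.0147, and edgeR gave 0.0398 without N052 and 0.00072 without N052 and P051. Those 2 edgeR fits called 206 of 10477 genes and 1107 genes, the latter 10.9% of all genes. Both leave out N052, of the pair picked for likeness across the groups, so their p-values are no support for a difference. The other NF-Y subunit genes Nfya and Nfyc had log2 fold changes of -0.02 and 0.23, and Rfx5, a subunit of the X box factor, was below the filter.

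Of 9 genes from interferon gamma to the factors that induce Ciita, all were tested, and 1 was higher and 0 were lower by the same measure, against 7.9% and 8.71% of all genes, with a median of 0.09. Irf1, an interferon-induced factor that acts on a Ciita promoter, had 137, 151 and 155 CPM in P051, P052 and P053, against 106, 105 and 127 CPM in N051, N052 and N053. The groups were separate (log2 fold change 0.39, SE 0.15, edgeR adjusted p = 0.216, and 0.19 after GC and length correction). Ifng itself had 0.530 to 1.95 CPM in the 6 libraries, with overlapping groups.

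Of 10 endolysosomal proteolysis genes, all tested, 2 were higher and 0 were lower by that measure, against 7.9% and 8.71% of all genes, with a median of 0.07. Ctsd, the aspartic protease cathepsin D, had 281, 204 and 203 CPM in P051, P052 and P053 and 79.3, 171 and 108 CPM in N051, N052 and N053, without overlap. Its log2 fold change was 0.94 (SE 0.24, edgeR adjusted p = 0.105) and 0.69 after GC and length correction, and DESeq2 gave it an adjusted p of 0.00714. In edgeR its adjusted p was 0.0229 without N052 and 9.46e-07 without N052 and P051, in the fits that called 206 of 10477 genes and 1107 genes (10.9% for the latter). As N052 was picked for its likeness to P051, these 2 p-values are no support for a difference. Ctsf, the cysteine protease cathepsin F, which can process the invariant chain in macrophages, had 41, 23 and 23 counts in P051, P052 and P053 and 5, 8 and 9 counts in N051, N052 and N053 (log2 fold change 1.70, SE 0.57, edgeR adjusted p = 0.171). It lay under the count filter in every library with HTR2C- medium. Ctsf was thus tested only through the group where it is high, and its place among the higher genes is no support for a difference. Ctss, the main invariant chain protease of antigen-presenting cells, was at 5338 ± 182 CPM with HTR2C+ medium and 5971 ± 208 CPM with HTR2C- medium, a log2 fold change of -0.16 (SE 0.15, edgeR adjusted p = 0.618) that was 0.037 after GC and length correction. Its groups were separate, with HTR2C+ medium lower; it was chosen after its values were seen.

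Of 9 genes of class II traffic and turnover, all tested, 0 were higher and 4 were lower by that measure, against 7.9% and 8.71% of all genes, with a median of -0.27 (-0.13 with libraries scaled to total counts). Marchf8, a ubiquitin ligase of the family that removes class II from the surface, had 11.6, 8.33 and 11.8 CPM in P051, P052 and P053 and 15.7, 14.7 and 14.98 CPM in N051, N052 and N053 (log2 fold change -0.51, SE 0.21, edgeR adjusted p = 0.253). Cd83, which opposes that ligase activity in antigen-presenting cells, had 311, 336 and 219 CPM in P051, P052 and P053, against 469, 341 and 403 CPM in N051, N052 and N053 (-0.48, SE 0.19, adjusted p = 0.222). Rab7, a GTPase of late endosomes, and Arl8b, a GTPase of lysosome movement, had log2 fold changes of -0.40 (SE 0.15) and -0.33 (SE 0.15). Without N052 and P051 the edgeR adjusted p was 0.00805 for Cd83 and 0.0113 for Rab7, in the fit that called 10.9% of all genes and whose p-values are no support for a difference. After GC and length correction Marchf8, Cd83, Rab7 and Arl8b stood at -0.61, -0.55, -0.32 and -0.13. In 5 of the 9 genes the groups were separate with HTR2C+ medium lower, against 11.5% of all genes. The gene of these 5 not yet named is Marchf1, a class II ubiquitin ligase chosen after its values were seen. It averaged 155 ± 11.9 CPM with HTR2C+ medium and 175 ± 9.59 CPM with HTR2C- medium (SD, n = 3 each), a log2 fold change of -0.17 (SE 0.14) that was 0.087 after GC and length correction.

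**Figure D5:**
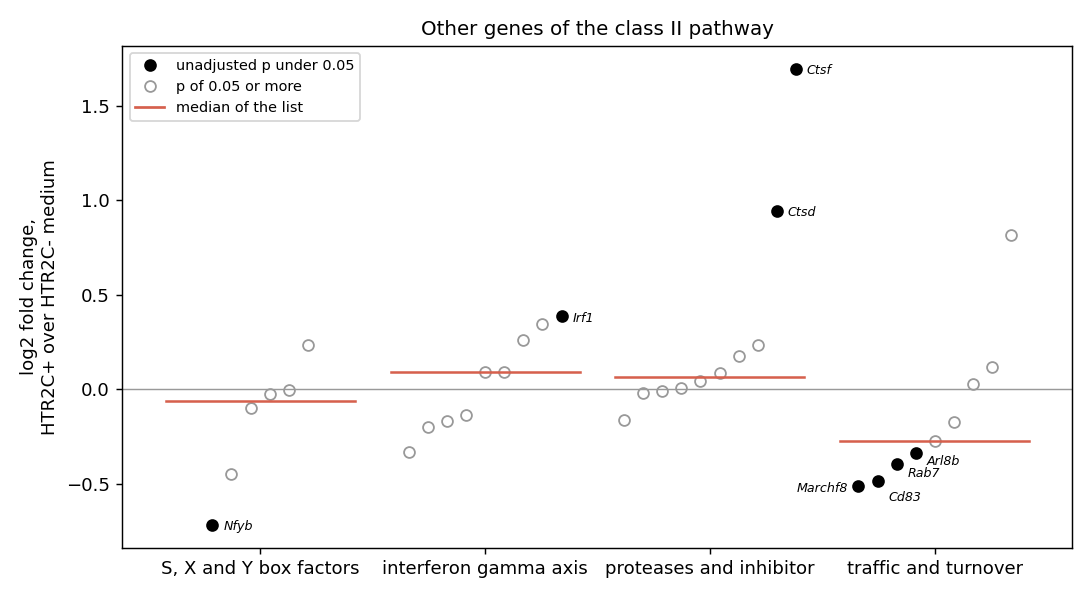
Log2 fold change of HTR2C+ over HTR2C- medium (vertical axis) for the tested genes of 4 class II pathway lists; filled points have an unadjusted p under 0.05 and are named, lines are list medians. The traffic and turnover list has its median at -0.27 and 4 filled points below 0, while Ctsd and Ctsf stand highest. Ctsf passed the count filter through the libraries with HTR2C+ medium alone.

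Over 5310 genes averaging 10 CPM or more, the profiles closest to the mean of H2-Aa, H2-Ab1, H2-Eb1 and Cd74 over the 6 libraries were those of Eef1d, Ndufv1, Cct6a, Slc25a3 and Oas1a, with root mean square differences of 0.0194, 0.0199, 0.0296, 0.0300 and 0.0345 on the log2 scale. That mean profile was itself shallow, from -0.09 in N053 to 0.16 in P052 around its centre. It averaged genes that differed: in P051, Cd74 stood at -0.31 and H2-Aa, H2-Ab1 and H2-Eb1 at 0.27, 0.25 and 0.27. The genes found are close to this mean, and their closeness to any single class II gene was not measured.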

How the data were processed

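RNA was measured in 6 libraries, 3 per conditioned medium, grouped by their titles. Per the labels' protocols, Trizol was used for extraction and a VAHTS Universal V6 kit for the libraries. Fastp, HISAT2, StringTie, edgeR and the GRCm39 build are named, without versions, in the submitters' processing notes. How strand and multi-mapping reads were handled is not given in the sources used here. Per the file headers, one set of deposited columns holds counts, whole reads per gene. The deposited FPKM values equal the count over the deposited gene length and total count to within a relative 3.80e-07.

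Counts were tested in R 4.3.3 with edgeR 4.0.16 (filterByExpr, 10177 genes kept, TMM, robust quasi-likelihood F test, Benjamini-Hochberg over all tested genes). Fold changes are HTR2C+ over HTR2C- medium. Alternatives were RLE or total-count scaling, no filter, at least 1 CPM in 3 libraries, the replicate number fitted as a block, limma-voom (limma 3.58.1), DESeq2 1.42.0, splines of GC content and length per library removed as offsets, both together, each library left out, N052 and P051 left out, and both DM beta genes summed. GC content came from GENCODE M21 transcripts matched by gene ID, found for 21851 of 21959 genes. The code was tested on simulated counts. A count of 0 allows 3 counts, given in TMM-scaled CPM; this floor covers counting error only, since reads carry no molecular identifiers. Lists were described by counts and medians, without set tests.

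The members and lists were chosen with earlier results of these data known. Genes named from a pathway list are those with an unadjusted p under 0.05 or, with none, the most abundant per length. The genes Nfya, Nfyc, Rfx5, Ifng, Ctss, Marchf1 and the cell type markers were named after their values were seen. For the profile search, genes with ordinary symbols were ranked by root mean square difference of centred log2 CPM, and the first 5 are named.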

Additional observations from a re-analysis of the deposited data

How the results depend on the processing

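The count of genes with an adjusted p under 0.05, 0 in the edgeR fit (1690 at an unadjusted p under 0.05), was 422 with no count filter, 394 by DESeq2, 1107 without N052 and P051, and 0 to 206 with one library left out (206 without N052, 186 without P051). Of 128 member values under the alternatives, 121 kept their sign and 1 passed the threshold, H2-Eb1 at 0.40 without N052 and P051. Signs turned for Cd74 (0.055 scaled to total counts, and -0.24 to 0.061 with one library left out), H2-DMb1 (-0.044 to 0.43 with one left out), H2-Ab1 (-0.20 after GC and length correction, and -0.20 with the replicate block in addition) and Ifi30 (-0.00095, and -0.011 with the block). The cause was not tested. Scaling to total counts moved the median of all genes to 0.16. The list medians under that scaling were 0.23 (interferon gamma axis), 0.20 (proteolysis) and -0.13 (traffic and turnover). With one library left out they ran from -0.26 to 0.032 for the S, X and Y box factors, from -0.0097 to 0.13 for the interferon gamma axis, from 0.021 to 0.15 for proteolysis and from -0.36 to -0.16 for traffic and turnover, and without N052 and P051 the interferon gamma axis stood at 0.013. For the 9 list genes named by rule (H2-Ob, Nfyb, Irf1, Ctsd, Ctsf, Marchf8, Cd83, Rab7 and Arl8b) all 142 values kept their sign, and 10 passed the threshold. All but H2-Ob were named for an unadjusted p under 0.05 in these same libraries, so the kept signs are no support for a difference. The passing values came from 4 fits that called many genes. These were no count filter (422 of 14861), DESeq2 (5.77%), without N052 (206 of 10477) and without N052 and P051 (10.9%). Ctss and Marchf1, chosen after their values were seen, turned to 0.037 and 0.087 after GC and length correction.

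Whether the replicate numbers pair the libraries is not known. Deviations from group means correlated at -0.15, -0.23 and 0.05 for equal numbers, and not every library correlated best with its own number. With 3 libraries per group, these correlations cannot exclude shared donors or batches of medium. With the replicate block the edgeR count was 0, as without it, and H2-Eb1 had an adjusted p of 0.451. Depth limits Ciita and H2-DMb2 most, at 5 to 36 and 0 to 19 counts per library.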
